A study of Drosophila melanogaster with 30 samples.

Results

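The sites described here are the 1417 genomic bins of 300 bp at which MNase accessibility (MACC) was called different between *Drosophila* S2 cells and S2 cells overexpressing wild type PH (PH-WT). They are 1417 of the 7543 different bins on at least 1 of the 8 lists deposited for the 3 cell lines. Membership was defined by the authors' own MACC calls, and the direction of each bin is the cell line named as having the higher MACC. The counts of each direction are therefore a description of that list and were not tested. The text below describes where the bins of that list lie. It gives their spacing, the size of their clusters, their position along the chromosome arms and the places where both directions lie side by side.

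Polyhomeotic (PH) is a core subunit of the Polycomb repressive complex PRC1, which keeps developmental genes silent in cells that should not express them. Its C-terminal SAM domain binds the SAM domain of the next PH molecule, and chains of PH formed in this way are known to cluster Polycomb complexes and to hold distant chromatin regions together. Micrococcal nuclease (MNase) cuts the DNA between nucleosomes. MACC is the slope of the nucleosomal reads released from a bin plotted against the logarithm of the MNase amount. A bin with higher MACC is the more accessible one.

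S2 cells, a cultured line derived from late *Drosophila* embryos, were the reference. The PH-WT–expressing cells are S2 cells that stably express BLRP-FLAG-tagged wild type PH from a promoter induced by copper, in addition to their endogenous PH. The labels of all samples, S2 included, give 3 days with 0.5 mM CuSO4, but the methods name copper only for inducing PH-WT or PH-ML. If the S2 cells were not treated, effects of copper and of PH-WT cannot be told apart in any of these calls. Each line has 10 libraries, since 5 amounts of MNase were used in each of 2 experiments. The amounts are 1.5, 6.25, 25, 100 and 400 U in the methods, whereas the labels write the lowest as 1.65. The third line expresses PH-ML, in which the SAM domain cannot polymerize (PH-mut in the labels), and enters here only where its calls are set beside a named site. How many clones make up the PH-WT line is not given in the sources used here, so a difference between the lines cannot be told apart from one between clones. The lists hold positions only, with no MACC score, read count or value per library. The identity of the cells could thus not be checked by marker genes, the 2 experiments could not be compared, and the depth behind each bin is unknown. The test and the threshold of the calls are not given in the sources used here. Coordinates are on dm3, and no bin is assigned to a gene because no annotation of dm3 was used.

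Most of the listed bins were less accessible in PH-WT–expressing cells than in S2 cells. Up to the last bin listed on each chromosome the genome holds 464488 bins, a span of 139.3 Mb, and the 1417 bins are 0.305% of them. The 335 bins with higher MACC in PH-WT are 0.0721% of the span, and the 1082 bins with lower MACC in PH-WT (higher in S2 cells) are 0.233%. Bins higher in PH-WT thus made up 23.6% of the list (95% Wilson interval 21.5% to 25.9%). All intervals given here cover counting error only, since neighboring bins are not independent and bins are not replicates of a cell line.

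The 2 directions were divided differently over the chromosomes, and of the 5 large arms X and 2R were furthest apart. On X, 77 bins were higher and 134 lower in PH-WT, so 36.5% were higher (95% Wilson interval 30.3% to 43.2%). On 2R, 25 bins were higher and 162 lower, a share of 13.4% (9.22% to 19.0%). The other 3 large arms lay between these values and their intervals overlapped one another. The interval of X also overlapped those of 2L and 3R, and the interval of 2R overlapped that of 3L. They held 54 higher and 164 lower bins on 2L (24.8%, 19.5% to 30.9%), 67 and 221 on 3L (23.3%, 18.8% to 28.5%) and 74 and 217 on 3R (25.4%, 20.8% to 30.7%).

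Relative to chromosome length, X had the most bins higher in PH-WT of the 5 arms and the fewest lower ones. Higher bins numbered 3.44 per Mb on X, 2.74 on 3L, 2.65 on 3R, 2.35 on 2L and 1.18 on 2R. Lower bins numbered 9.03 per Mb on 3L, 7.78 on 3R, 7.66 on 2R, 7.13 on 2L and 5.98 on X. The place of X at the top rests on 1 stretch, described below with the clusters. Without it, 51 of 185 bins on X were higher (27.6%), or 2.28 per Mb.

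Outside the 5 arms the list held 38 bins higher and 184 lower in PH-WT, or 1.86 and 9.02 per Mb against 2.50 and 7.55 on the arms together. Chromosome 4 had 0 higher and 5 lower bins. The scaffolds of heterochromatin, the repeat-rich DNA near the centromeres and on the Y chromosome, together had 14 higher and 72 lower bins. Of these, 3RHet held 1 higher and 36 lower bins, 0.408 and 14.7 per Mb, whereas 2RHet held 9 and 20 (2.75 and 6.11 per Mb). YHet held 3 higher and 2 lower bins, a share of 60.0% higher with a 95% Wilson interval of 23.1% to 88.2%, and 3LHet held 0 and 11. On the unplaced sequence, chromosome U, 24 bins were higher and 107 lower, or 2.39 and 10.7 per Mb. Reads mapped to more than 1 place were discarded by the authors, and the share of repeats in each bin was not available for the lists, so that its part in these counts was not tested.

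The bins of both directions were unevenly spaced, with many close neighbors and some very long gaps. Distances are given from the start of a bin to the start of the next bin of the same direction on the same chromosome, so that 300 bp means adjacent bins. For bins higher in PH-WT the median distance was 69.9 kb over 325 gaps (95% interval of the median 25.2 to 149 kb). The lower quartile was 1.2 kb, the upper quartile 506 kb and the longest gap 4974 kb. For bins lower in PH-WT the median was 5.40 kb over 1069 gaps (3.60 to 7.80 kb), with quartiles of 0.600 and 137 kb and a longest gap of 2162 kb. Between runs of adjacent bins in place of bins, the medians were 204 kb for higher and 30.0 kb for lower bins, and without the fullest cluster of each direction they were 133 and 6.00 kb. The mean gap was 375 kb between higher bins and 125 kb between lower bins, which are the more numerous.

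Close neighbors were frequent in both directions. Of the gaps between higher bins, 60 (18.5%) joined adjacent bins, 85 (26.2%) were at most 1.2 kb, 126 (38.8%) at most 10 kb and 166 (51.1%) at most 100 kb, while 41 exceeded 1 Mb. Of the gaps between lower bins, 236 (22.1%) joined adjacent bins, 364 (34.1%) were at most 1.2 kb, 579 (54.2%) at most 10 kb and 764 (71.5%) at most 100 kb, and 23 exceeded 1 Mb. Beyond adjacency the counts fell quickly. Among the higher bins 14 gaps were 600 bp, 7 were 900 bp and 4 were 1200 bp, and among the lower bins the same distances occurred 55, 40 and 33 times. Successive bins of a direction were thus adjacent more often than separated by 1, 2 or 3 bins.

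**Figure D1:**
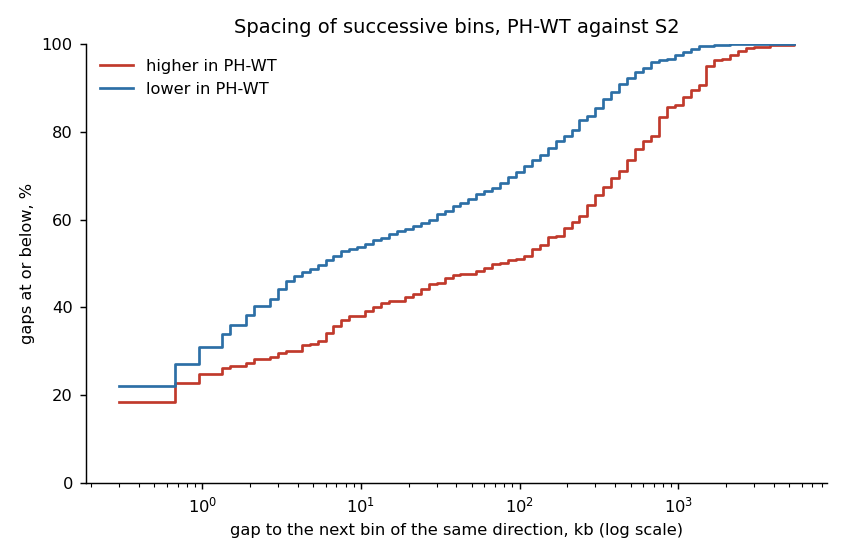
Cumulative share of gaps (vertical axis, percent) at or below a given distance between successive listed bins of 1 direction (horizontal axis, kb, log scale) for bins higher (red) and lower (blue) in PH-WT than in S2 cells, drawn in steps on a grid of distances. The curve of the lower bins lies above that of the higher bins, with 54.2% against 38.8% of gaps at or below 10 kb.

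The arms differed more in spacing than in density. Median gaps between higher bins were 431 kb on 2R, 171 kb on 2L and 165 kb on 3L, but 20.4 kb on 3R and 3.45 kb on X. Between lower bins the medians were 27.0 kb on 2L, 7.50 kb on 2R, 3.90 kb on 3L, 2.40 kb on X and 1.80 kb on 3R. Higher bins were therefore packed most closely on X and 3R, the arms that hold the fullest clusters described below, and lower bins on 3R, X and 3L. The longest stretch without a bin higher in PH-WT on the 5 arms was 4.97 Mb on 2R (between bins at 12075001 and 17049000), and the longest without a bin lower in PH-WT was 2.16 Mb on 3R (between 19882801 and 22044600).

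The PH-ML list against S2, which shares the S2 libraries and is given for its own values only, had the opposite balance, with 600 bins higher (0.129% of spanned bins) and 210 lower (0.0452%) in PH-ML. Its higher bins had a median gap of 4.80 kb with 29.2% adjacent, and its lower bins 49.8 kb with 11.6% adjacent.

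Merged into runs of adjacent bins, most sites of both directions were single bins. The 335 higher bins formed 275 runs, of which 239 were 1 bin, 27 were 2 bins, 7 were 3 or 4 bins and 2 were 5 bins or more, the longest having 11. The 1082 lower bins formed 846 runs, of which 686 were 1 bin, 129 were 2 bins, 20 were 3 or 4 bins and 11 were 5 bins or more, with a longest of 9. Runs of at least 2 bins held 96 of the higher bins (28.7%) and 396 of the lower bins (36.6%).

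When bins of 1 direction at most 10 kb apart were linked, the lower bins gathered into clusters more often. They formed 503 clusters, of which 278 were single bins, 99 had 2 bins, 83 had 3 or 4 and 43 had 5 or more, and 804 bins (74.3%) had at least 1 partner. The higher bins formed 209 clusters, of which 156 were single bins, 34 had 2, 12 had 3 or 4 and 7 had 5 or more, and 179 bins (53.4%) had a partner. Clusters of at least 5 bins held 72 of the higher bins (21.5%) and 327 of the lower bins (30.2%). The largest classes went the other way, as 3 clusters of 10 bins or more held 49 of the higher bins (14.6%) and 6 held 94 of the lower bins (8.69%). A longer list gives more links at a fixed distance, and no test of clustering beyond list length was made.

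**Figure D2:**
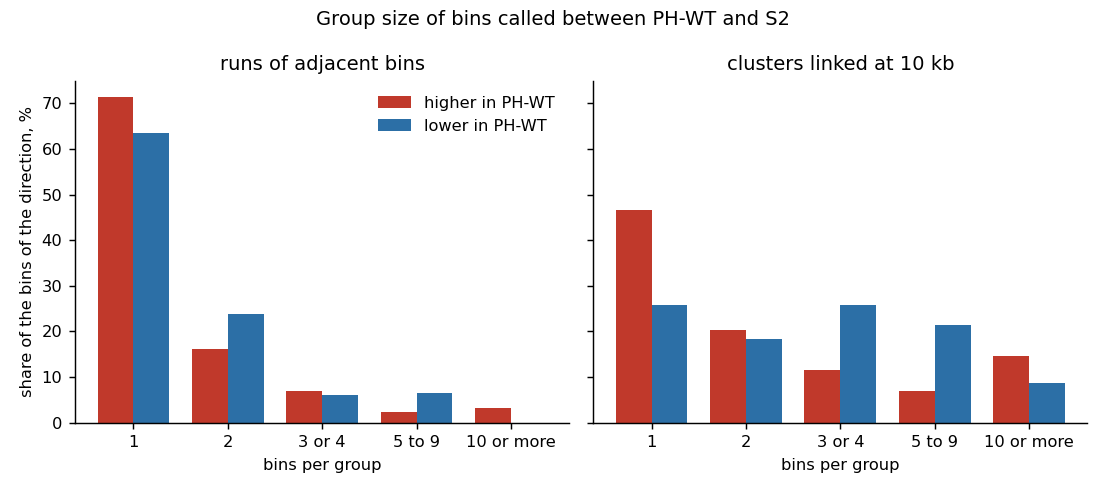
Percent of bins (vertical axis) in runs of adjacent bins and in clusters linked at 10 kb, by the number of bins in the run or cluster (horizontal axis), for bins higher and lower in PH-WT than in S2 cells. Clusters of 5 to 9 bins held 6.87% of the higher and 21.5% of the lower bins, and those of 10 or more held 14.6% and 8.69%.

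The few large clusters of higher bins lay on 3 arms, whereas those of lower bins were spread more widely. Of the 7 clusters of at least 5 higher bins, 3 were on X, 3 on 3R and 1 on 2L. Of the 43 clusters of lower bins, 11 were on 3R, 8 on 2R, 8 on 3L, 7 on X, 4 on 2L, 2 on 3RHet, 2 on U and 1 on 2RHet. The clusters of higher bins were 4.50 to 48.6 kb long with a median of 14.4 kb, and 7.69% to 54.2% of the bins they span were listed, with a median of 24.0%. Those of lower bins were 1.50 to 56.1 kb long with a median of 6.60 kb, and 9.09% to 100.0% of their bins were listed, with a median of 30.4%, 4 of them without an unlisted bin. The 5 fullest clusters held 61 of the higher bins (18.2%) and 84 of the lower bins (7.76%).

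The fullest cluster of higher bins was a single stretch on X from 2011501 to 2025900, 14.4 kb long, with 26 of its 48 bins listed (54.2%). It was made of 4 runs in 2 blocks. The first block held a run of 3 bins from 2011501 to 2012400 and a run of 8 bins from 2013001 to 2015400. The second began at 2021101 with 4 bins up to 2022300, followed after 1 unlisted bin by 11 bins from 2022601 to 2025900, the longest run of the whole list. The nearest bin lower in PH-WT was 157 kb away. The stretch lay 8.97% of the arm from the distal end and held 26 of the 77 higher bins on X.

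All 3 lines have the endogenous ph genes, and the PH-WT and PH-ML lines each carry a tagged ph construct in addition. In the RefSeq gene table (Release 6 plus ISO1 MT), ph has a pair of neighboring copies on X, ph-d and ph-p. Whether the stretch on X overlaps them was not determined, because the table uses another genome release than the lists. Reads from the construct and reads from the genome cannot be told apart in lists of positions. In the list of PH-ML against S2, 6 of the 26 bins were higher in PH-ML and 0 lower (0.129% and 0.0452% of spanned bins). In the list of PH-ML against PH-WT, 18 of them were lower in PH-ML (0.707% of spanned bins were on that list as lower and 0.788% as higher) and 0 higher. These comparisons share libraries with the one described here.

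Of the other 6 clusters of at least 5 higher bins, 3 lay near the distal end of 3R, 2 farther along X and 1 on 2L. On 3R from 25509301 to 25557900, 13 of 162 bins were listed (8.02% over 48.6 kb), with the nearest lower bin 25.2 kb away. A second cluster on 3R, from 25569901 to 25577400 with 6 of 25 bins listed (24.0%), began 12 kb farther on. Another, from 26591401 to 26608200, had 10 of 56 bins listed (17.9%) and enclosed 2 bins lower in PH-WT, 1 of them adjacent to a higher bin. The cluster on 2L from 19571701 to 19576800 had 6 of 17 bins listed (35.3%) and contained the 3 adjacent bins from 19575001 to 19575900. It was 218 kb from the nearest lower bin. On X from 6752401 to 6756900, 6 of 15 bins were listed (40.0%), among them a run of 4 from 6755101 to 6756300, 416 kb from the nearest lower bin. The last, on X from 12643801 to 12663300, had 5 of 65 bins listed (7.69%) and enclosed 1 lower bin.

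In the PH-ML lists, which share the S2 or the PH-WT libraries with this comparison, these clusters were called as follows, and nothing is read from the counts. Over all spanned bins 0.0452% were lower in PH-ML relative to S2 and 0.707% relative to PH-WT. Of the 13 bins from 25509301 on 3R, 6 were lower in PH-ML relative to S2 and 9 lower in PH-ML relative to PH-WT. Of the 6 bins from 25569901, 5 were lower in PH-ML relative to PH-WT and 0 were on the list against S2. Of the 10 bins from 26591401, 4 were lower in PH-ML relative to PH-WT, as were 3 of the 6 bins on 2L and 3 of the 4 bins in the run on X at 6755101.

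**Figure D3:**
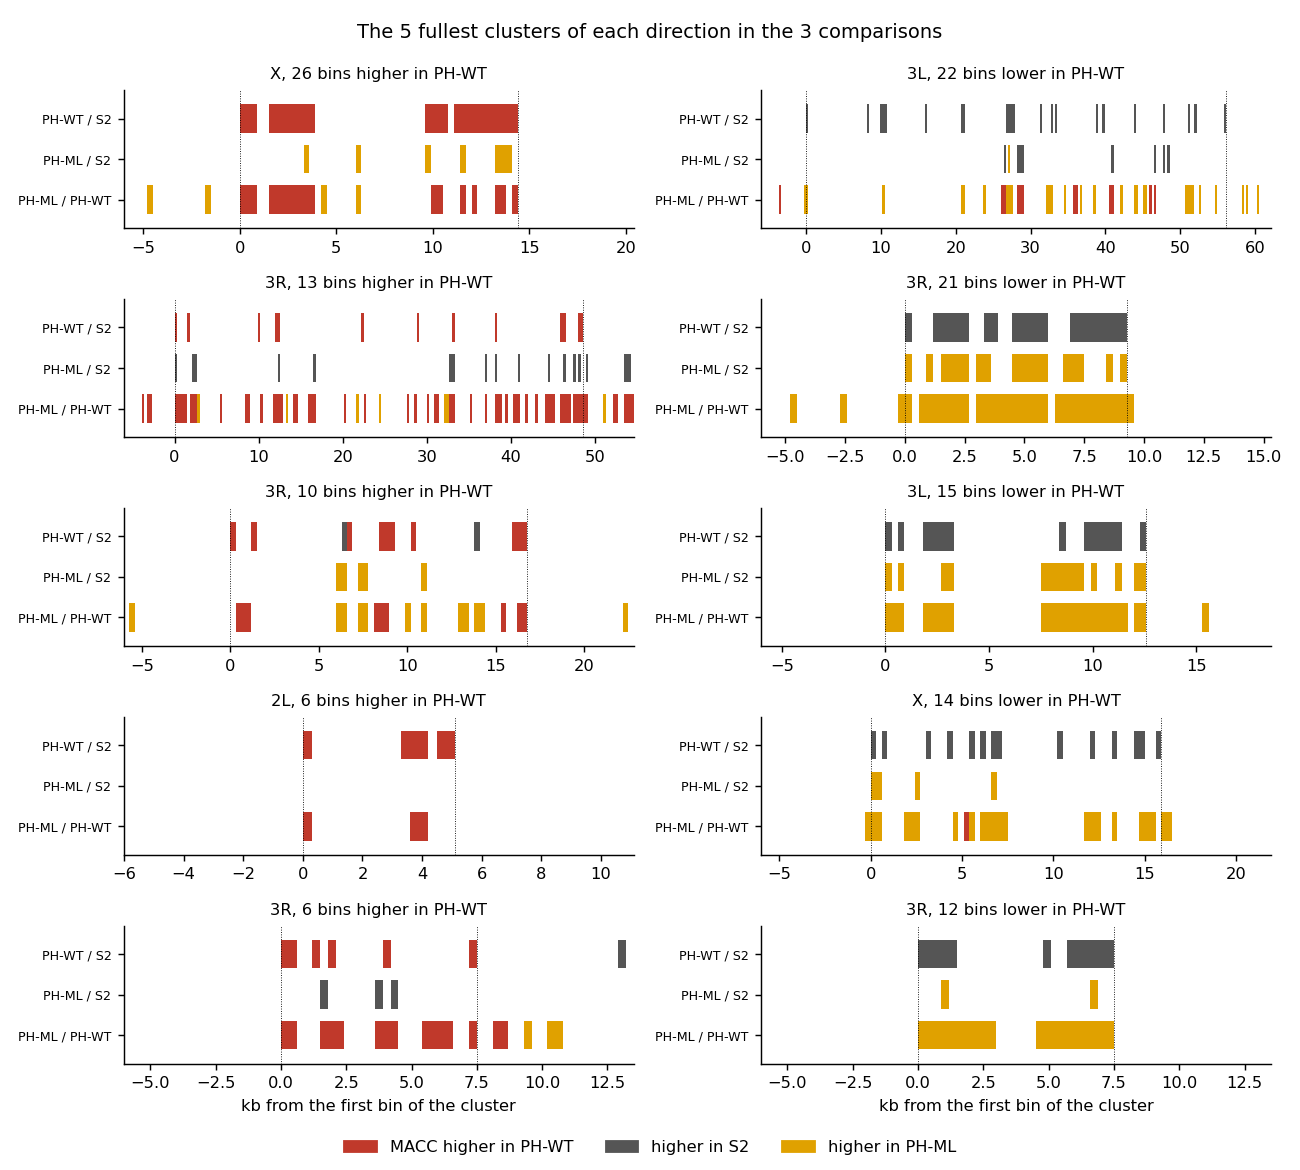
The 5 fullest clusters of higher (left panels) and lower bins (right panels), with the bins of the 3 comparisons in 3 rows, colored by the cell line with the higher MACC and drawn at their distance from the start of the cluster (horizontal axis, kb; dotted lines mark the ends of the cluster). In the top row of each panel, PH-WT against S2, the X stretch with 26 higher bins shows 2 dense blocks, whereas the 13 higher bins on 3R and the 22 lower bins on 3L are scattered over 48.6 and 56.1 kb.

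Bins lower in PH-WT formed their longest runs on 3R and 3L. The longest were 9 adjacent bins each, on 3R from 8290801 to 8293500 and on 3R from 19880401 to 19883100. Runs of 8 bins followed on 3R from 8335201 to 8337600 and from 17122801 to 17125200, and a run of 6 bins on 3L from 9376801 to 9378600. Their nearest bin higher in PH-WT was 249, 858, 205, 233 and 310 kb away, in the order given. Over the lower bins as a whole the median of this distance was 222 kb.

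The fullest clusters of lower bins were of a dense and a scattered kind. On 3R from 8328301 to 8337600, 21 of 31 bins were listed in 5 runs (67.7% over 9.30 kb), the densest of the 10 fullest clusters of either direction. The run of 9 bins from 8290801 lies 34.8 kb before it. On 3R from 7779601 to 7787100, 12 of 25 bins were listed (48.0%), and on 3L from 9367201 to 9379800, 15 of 42 (35.7%). The cluster on X from 21559201 to 21575100 had 14 of 53 bins listed (26.4%). By contrast, the cluster with the most bins, 22 on 3L from 8645101 to 8701200, was spread over 56.1 kb in 16 runs, with 11.8% of its 187 bins listed. The nearest higher bin was 205, 522, 309, 634 and 147 kb away, in the same order.

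The same sites were called in the PH-ML lists as follows. Over all spanned bins 0.788% were higher in PH-ML relative to PH-WT and 0.129% relative to S2. These lists share the PH-WT or the S2 libraries with the one described here, so the counts are not independent of the choice of bins. All 21 bins of the dense cluster at 8328301 on 3R were higher in PH-ML relative to PH-WT and 15 were higher in PH-ML relative to S2. For the 12 bins at 7779601 on 3R these counts were 12 and 2, and for the 15 bins at 9367201 on 3L they were 15 and 8. Of the 14 bins on X at 21559201, 8 were higher in PH-ML relative to PH-WT and 2 higher relative to S2. Of the 22 scattered bins on 3L, 10 were higher in PH-ML relative to PH-WT, and against S2 1 was higher and 1 lower. In the 2 runs of 9 bins on 3R, all 9 were higher in PH-ML relative to PH-WT, and 6 (at 8290801) and 8 (at 19880401) were higher relative to S2.

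Along the 5 large arms the higher bins were concentrated toward the distal ends, whereas the lower bins were spread more evenly. With each arm cut in 5 equal parts from the distal end (telomere) to the proximal end (centromere), the parts held 117, 48, 46, 38 and 48 of the 297 higher bins, so that 39.4% lay in the most distal part. For the 898 lower bins the counts were 179, 169, 131, 218 and 201, with 19.9% in the most distal part and 24.3% in the fourth.

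The distal concentration of higher bins came mainly from 3R and X. On 3R the counts from distal to proximal were 45, 4, 6, 8 and 11, and on X they were 42, 13, 11, 3 and 8. On 3L they were almost level, with 12, 13, 13, 15 and 14. On 2L the first parts held most, with 15, 18, 8, 4 and 9. On 2R they were 3, 0, 8, 8 and 6. Allowing 3 counts in place of 0, the second part could hold up to 12% of the 25 bins. That bound treats bins as independent, which neighboring bins are not. The 26 bins of the X stretch and the 22 bins of the fullest window on 3R, given below, account for 48 of the 117 distal bins. Without them the most distal part held 69 of 249 higher bins (27.7%).

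Lower bins were distributed in a different way on each arm. On 3R the fourth part held 85 of 217, with 46, 31, 20 and 35 in the others from distal to proximal. On 3L the first 2 parts held 63 and 64 of 221, followed by 19, 48 and 27. On X the counts grew toward the centromere after the second part, with 23, 9, 26, 29 and 47, and on 2R they were 23, 23, 29, 32 and 55. On 2L they were 24, 42, 37, 24 and 37. A single 200-kb window held 34 of the 47 lower bins in the last part of X. Another held 30 of the 85 in the fourth part of 3R, and both windows are given below.

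**Figure D4:**
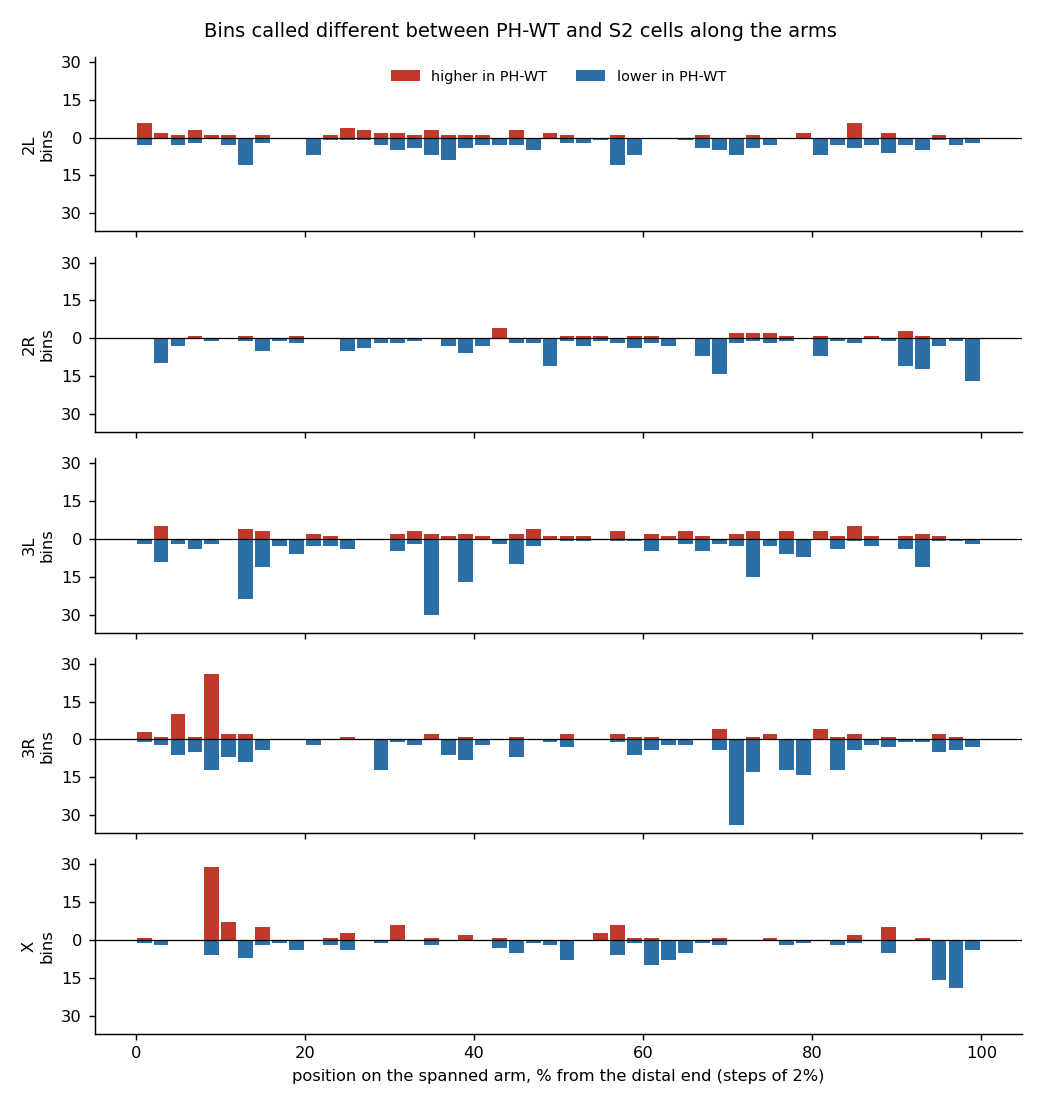
Number of listed bins (vertical axis) in steps of 2% of arm length from the distal end (horizontal axis, percent) on 2L, 2R, 3L, 3R and X, with bins higher in PH-WT drawn upward and bins lower in PH-WT drawn downward. The highest steps of the higher bins are those starting at 8% on X (29 bins) and on 3R (26 bins), and those of the lower bins start at 70% on 3R (34 bins) and at 34% on 3L (30 bins).

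At the proximal ends the list was of 1 direction. Within 1 Mb of the proximal end of the 5 arms lay 62 of 898 lower bins (6.90%) and 0 of 297 higher bins. Allowing 3 counts in place of 0 gives a share of up to 1.01%, a bound that again treats bins as independent. The ends within 1 Mb make up 4.20% of the span of the arms, and the high-coordinate end of each arm was taken at its last listed bin. Of the 62 lower bins, 30 were on X (22.4% of its lower bins) and 18 on 2R (11.1%). On 3R there were 6 (2.76%), on 2L 5 (3.05%) and on 3L 3 (1.36%), so that only X and 2R exceeded 4.20%. Within 1 Mb of the distal end both directions were present, with 18 higher bins (6.06%), of which 8 were on 2L, 5 on 3L, 4 on 3R and 1 on X, and 33 lower bins (3.67%), of which 13 were on 2R and 11 on 3L.

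In fixed windows of 200 kb, the listed bins were present in a majority of the windows of the 5 arms. Of 598 windows, 143 (23.9%) held a higher bin, 279 (46.7%) a lower bin, 79 (13.2%) both and 255 (42.6%) neither. At least 50% of the higher bins lay in 27 windows (4.52%) and at least 50% of the lower bins in 51 windows (8.53%).

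The fullest windows of higher bins held many more bins on X and 3R than on the other arms. On X the window from 2000001 to 2200000, which contains the stretch of 26 bins, held 26 of the 77 higher bins of the arm (33.8%). On 3R the window from 25400001 to 25600000 held 22 of 74 (29.7%) and 1 lower bin. In that window the PH-ML lists, which share libraries with this one, held 23 bins lower and 0 higher in PH-ML relative to S2 (0.0452% and 0.129% of all spanned bins) and 88 lower and 17 higher relative to PH-WT (0.707% and 0.788%). Elsewhere the fullest window held 6 higher bins on 2L (1 to 200000, 1 of 2 tied windows), 5 on 3L (3400001 to 3600000, beside 21 lower bins) and 3 on 2R (1800001 to 2000000, 1 of 3 tied). The other windows differed from that on 3R in the PH-ML lists. Relative to S2 they held 7 bins higher and 0 lower in PH-ML on X, 19 and 0 on 2L, 6 and 2 on 3L, and 1 and 0 on 2R. Relative to PH-WT these counts were 6 and 20 on X, 39 and 10 on 2L, 33 and 15 on 3L, and 5 and 14 on 2R.

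For lower bins the fullest windows were on X and 3R too. The window on X from 21400001 to 21600000 held 34 of the 134 lower bins of the arm (25.4%) in 5 clusters. In the PH-ML lists, with the same shared libraries and shares of all bins, 21 of them were higher relative to PH-WT and 3 relative to S2. The window on 3R from 8200001 to 8400000 held 30 of 217 (13.8%), all 30 higher in PH-ML relative to PH-WT and 21 higher relative to S2. The window on 3L from 8600001 to 8800000 held 22 bins, the scattered cluster given above. On 2R the window from 6400001 to 6600000 held 14 bins in 4 clusters, and on 2L that from 3200001 to 3400000 held 7, 1 of 3 tied windows.

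Each arm also had a stretch of more than 1 Mb without a bin of either direction. These were 1.66 Mb on 3R (22044901 to 23701500), 1.36 Mb on X (15655201 to 17018400), 1.23 Mb on 2L (13576501 to 14804400), 1.22 Mb on 2R (13158001 to 14377200) and 1.03 Mb on 3L (6328501 to 7361400). Inside them the list of PH-ML against PH-WT, which holds 0.788% of all spanned bins as higher and 0.707% as lower in PH-ML, had 36, 17, 20, 51 and 11 bins, in the same order. The list of PH-ML against S2 had 2 bins in the stretch on X and 0 in each of the others.

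The 2 directions mostly kept apart at short range. Over all chromosomes, 1404 pairs of listed bins followed each other, of which 298 (21.2%) had opposite directions. Among pairs at most 1.2 kb apart, 12 of 461 (2.60%) were opposite, with 85 pairs both higher and 364 both lower in PH-WT. Of these 461 pairs, 298 were adjacent bins, which are not independent, and runs were not merged for these counts. The share of opposite pairs was 53 of 748 (7.09%) at most 10 kb apart and 147 of 1032 (14.2%) at most 100 kb apart. It thus grew with the distance allowed.

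Seen from single bins, the nearest listed bin was usually of the same direction. This held for 215 of the 335 higher bins (64.2%), where higher bins are 23.6% of the list, and for 990 of 1079 lower bins (91.8%), where lower bins are 76.4%. The median distance of a higher bin was 6.00 kb to the nearest higher bin and 71.7 kb to the nearest lower bin. For a lower bin it was 1.2 kb to the nearest lower and 222 kb to the nearest higher bin. A lower bin started within 1.2 kb of 14 higher bins (4.18%), within 10 kb of 68 (20.3%) and within 100 kb of 186 (55.5%). A higher bin started within 1.2 kb of 16 lower bins (1.48%), within 10 kb of 87 (8.04%) and within 100 kb of 314 (29.0%).

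There were 12 places where bins of both directions lay at most 1.2 kb apart, 10 of them on the 5 arms and 8 with 1 bin a side. Both directions touched at 2 of them. On 3L from 22610401 to 22611600, 1 higher bin was followed directly by 3 lower bins, and on 3R from 26597701 to 26598300, 1 lower bin was followed directly by 1 higher bin. On X from 3312601 to 3314100, 3 adjacent higher bins and 1 lower bin were separated by 1 unlisted bin. At the other places 2 or 3 unlisted bins lay between the directions. These were on 2L from 1221001 to 1222200 and from 8424001 to 8425200, on 3L from 3419101 to 3420600, from 3428701 to 3430200 and from 8496901 to 8498400, on 3R from 1573201 to 1574700 and from 25618201 to 25619700, on 2RHet from 367201 to 368700 and on U from 3564301 to 3565500. With 4 places 3L had the most, 3R had 3 and 2R had 0.

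At several of these places the list of PH-ML against PH-WT also held both sides, in opposite directions. On 2L at 1221001 and at 8424001 and on 3R at 1573201, the bin higher in PH-WT than in S2 was lower in PH-ML relative to PH-WT, and the bin lower in PH-WT was higher in PH-ML. On 3L at 3419101 and on 3R at 25618201 the same was true of the 1 higher and the 2 lower bins. At both touching places the list held the lower side only, 3 bins on 3L and 1 bin on 3R as higher in PH-ML relative to PH-WT, of which 2 and 1 were also higher in PH-ML relative to S2. On X at 3312601 it held the 3 higher bins only, as lower in PH-ML. On 2RHet at 367201 and on U at 3564301 it likewise held only the 1 higher bin, as lower in PH-ML. Neither side of the places on 3L at 3428701 and 8496901 was on a PH-ML list. Over all spanned bins, 0.788% were higher and 0.707% lower in PH-ML relative to PH-WT, and 0.129% were higher relative to S2. All these lists share the PH-WT or the S2 libraries with the one described here. The calls at these places are thus not independent of the choice of bins.

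**Figure D5:**
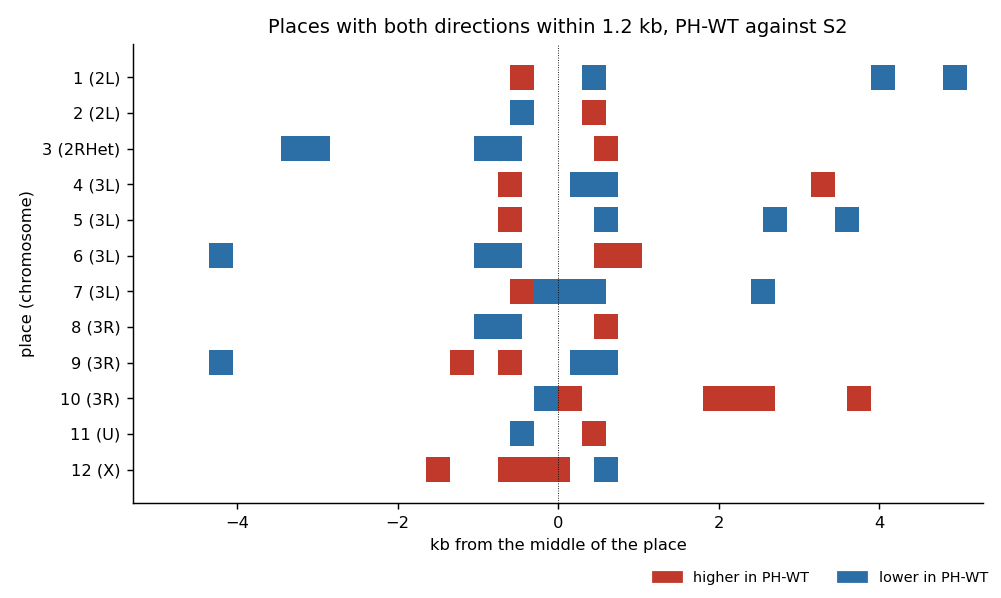
The 12 places with bins of both directions at most 1.2 kb apart, each row a place and each block 1 or more listed bins at their distance from the middle of the place (horizontal axis, kb), with bins higher in PH-WT in red and lower in blue. The directions touch in 2 rows. Counting only bins at most 1.2 kb from the other direction, 8 places have 1 bin on each side. Other listed bins nearby are drawn too, so a row can show more.

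Clusters built without regard to direction were mostly of 1 direction. Of 281 clusters with at least 2 bins linked at 10 kb, 41 held only higher bins, 200 only lower bins and 40 (14.2%) both. Of the 59 with at least 5 bins, 4 were higher only, 40 lower only and 15 (25.4%) mixed, and of the 9 with at least 10 bins, 2 were higher only, 6 lower only and 1 mixed. The mixed cluster with the most bins was on 3R from 26591401 to 26608200, with 10 higher and 2 lower bins and 4 changes of direction along it. On 3L from 3419101 to 3439800 there were 3 higher and 6 lower bins, and on 3L from 8491801 to 8498700 there were 2 and 5. On X from 12641101 to 12663300 there were 5 higher and 2 lower bins. The remaining clusters with at least 2 bins of each direction were on 3L from 627001 to 649500 (2 higher, 4 lower), on 3R from 25597501 to 25602600 (3 and 3) and on 3R from 25614601 to 25619700 (2 and 3).

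At the scale of a megabase both directions were present on every arm. Of the 118 megabases of the 5 arms with a listed bin, 22 held at least 4 bins of each direction. The 3R megabase from 25000001 to 26000000 held 27 higher and 19 lower bins, and it contains 2 of the clusters of higher bins, 2 of the mixed clusters and 1 of the 12 mixed places. The next megabase on 3R held 11 and 10. On X from 2000001 there were 35 higher bins, 26 of them in the stretch given above, and 8 lower bins. On 3R from 8000001 there were 4 higher and 35 lower bins, and on 3L the megabases from 3000001 and from 8000001 held 7 and 4 higher bins beside 31 lower bins each.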

How the data were processed

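MNase-titration-seq was done on S2, PH-WT and PH-ML cells, 30 libraries in all, of which 20 are from PH-WT and S2. The authors mapped paired reads to dm3 with Bowtie, kept unique reads and, in bins of 300 bp, regressed library-size-normalized read frequencies on the titration, with the slopes adjusted for GC content. The deposited lists hold called bins as positions with a direction, and no count, score, p-value or other measurement. The lists do not separate the experiments, and how these were combined is not stated. Shares carry 95% Wilson intervals, and median gaps carry 95% intervals from order statistics. Both kinds cover counting error only and do not measure the spread between experiments. Depth per library is unknown.

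Lists were read with Python 3.11.15, numpy 2.4.6 and scipy 1.17.1 and drawn with matplotlib 3.10.9. The list of both directions matched the lists of 1 direction in every bin. Chromosome spans run to the last bin on any of the 8 lists. Distances are from start to start. Runs are adjacent bins, and clusters link bins of 1 direction within 10 kb. Counting and linking were tested on simulated positions. Named sites are the 5 longest runs and 5 fullest clusters of each direction, all places with both directions within 1.2 kb, and the fullest 200-kb window and longest empty stretch of each arm. Other positions given in the text were picked after seeing their values. The members and these rules were chosen with earlier results of these data known. Alternatives were merged bins, other windows and distances, 5 arms only, and leaving out the fullest clusters.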

Additional observations from a re-analysis of the deposited data

How the results depend on the processing

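Of 68 alternative values for 24 results, 43 stayed within their counting interval or, for counts, within 1.5 times, and 25 moved by more. The share of bins higher in PH-WT was 22.6% to 25.8% under all alternatives. Counting runs in place of bins, the median gap was 204 kb for higher and 30.0 kb for lower bins. Merging within 1 kb put 40.0% of the higher and 51.9% of the lower bins in joined regions. As regions per Mb it gave 2.01 higher on 3R and 1.78 on X, and 5.48 lower on 2L, 5.53 on 2R, 5.80 on 3L, 4.19 on 3R and 3.57 on X. Of the higher bins, 31.8% were then in the most distal of the 5 parts of the arms. Without the fullest cluster of each direction, 22.7% of the higher bins were in runs and 33.6% in that part. With arms cut in 10 equal parts, the distal and proximal parts held 30.3% and 4.38% of the higher and 8.46% and 14.5% of the lower bins. The fullest 100-kb window of lower bins held 21. With the 200-kb windows shifted by 100 kb, the fullest window of lower bins held 24 in place of 34. A lower bin touched 2 higher bins, and lay within 3 kb of 37 and within 10 kb of 68. Added after the data were seen, leaving out the fullest cluster on X gave 2.28 higher bins per Mb there, leaving out the fullest window on 3R gave 1.86, and without both 27.7% were in the most distal part. No paired analysis was possible because the lists carry no replicate number and give no value per experiment, and reads were not analysed here. For the same reason no library could be left out, and without a score no stricter threshold could be set.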
